A study of Mus musculus with 10 samples.

Results

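The 36 genes described here encode the SR proteins and their relatives (10 Srsf genes, Tra2a and Tra2b), the kinases that phosphorylate them (Clk1 to Clk4, Srpk1 and Srpk2), 14 heterogeneous nuclear ribonucleoproteins (hnRNPs), and the splicing regulators Rbm3, Rbm39, Ptbp1 and Ptbp2. They were chosen by name, with earlier results of these data known. Each was followed through its listed transcript with the highest mean RNAseq count. Counts were present for 31 of the 36 genes, among 13188 genes listed in all, and 18 of the 36 were measured, among 4365 measured genes. Cortical cells taken from FVB mouse pups of both sexes at postnatal day 0 were kept in culture, neurons and glia together, for 7 days. Of the cultures used here 3 (numbered 1 to 3) were left untreated and 2 (numbered 4 and 5) received 55 mM KCl for 3 h, which depolarizes neurons. Cycloheximide (100 ug/ml, 7 min) was given to every culture just before lysis to hold ribosomes on the mRNA. RNAseq and ribosome footprinting (RF) libraries came from each culture. A further KCl replicate had been set aside by the authors because its library was small. The genes were compared to ask whether depolarization changed the transcripts of the splicing machinery, their occupancy by ribosomes, or both.

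SR proteins carry RNA recognition motifs and a tail rich in arginine and serine, and they commonly promote the use of the exons they bind. CLK kinases phosphorylate that tail in the nucleus and SRPK kinases phosphorylate it in the cytoplasm, which governs where SR proteins reside and what they bind. Members of the hnRNP family coat nascent RNA and often act against SR proteins, and PTBP1 holds back neuronal exons in cells that are not neurons, while its paralog PTBP2 takes over in young neurons. Many of these genes limit their own output through exons that expose the transcript to nonsense-mediated decay (NMD).

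For each transcript, RNAseq was summed over its regions, RF was the number of footprints on the coding sequence (CDS), and translation efficiency (TE) the ratio of the latter to the former. A transcript counted as measured when at least 2 cultures each had 10 RPKM (reads per kilobase and per 1000000 library reads) or more in RNAseq and in RF alike. All 18 measured members reached this in at least 2 untreated cultures, so none entered through its KCl values alone. They were Srsf2, Srsf4, Srsf7, Srsf9, Srsf11, Tra2a, Clk1, Clk4, Srpk1, Hnrnpa0, Hnrnpab, Hnrnph1, Hnrnph2, Hnrnpl, Hnrnpm, Rbm39, Ptbp1 and Ptbp2. A further 6 (Srsf10, Clk2, Clk3, Hnrnpa2b1, Hnrnpk and Hnrnpr) had reads but stayed below that level. No CDS read was counted in any library for 7 (Srsf1, Srsf3, Srsf5, Tra2b, Hnrnpa1, Hnrnpa3 and Rbm3), although the UTRs of all of these but Srsf1 carried RNAseq reads. Among all 7631 coding transcripts with a mean of at least 100 RNAseq reads, 2.79% had no CDS read. Alignment was to transcripts from which the authors had taken out degenerate sequences, and whether these CDS were among them was not tested. Srsf6, Srpk2, Hnrnpc, Hnrnpf and Hnrnpu were not analysed here. Reads that map to several transcripts were kept and counted on each, so isoforms and near-identical paralogs share reads.

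RNAseq libraries held 3056286 to 3629959 counted reads and RF libraries 1463654 to 7719915, the shallowest being RF of untreated culture 3 and KCl culture 4. The KCl label was checked with a list of 10 immediate early genes, of which 6 had a listed transcript and 5 were measured. All 5 measured ones rose in both assays. Nr4a2 rose by a log2 fold change of 5.17 in RNAseq and 5.90 in RF. The labels call the source neurons, yet astrocyte markers (all 7 listed) summed to 10410 to 11130 RNAseq RPM (reads per 1000000 library reads) in untreated and 8390 to 8597 in KCl cultures. Neuron markers (6 of 7 listed) summed to 418 to 612 and 498 to 546 in the same order, oligodendrocyte lineage markers (6 of 6) to 1223 to 1328 and 1109 to 1116, microglia markers (5 of 6) to 99.99 to 122 and 78.5 to 102.5, endothelial markers (4 of 4) to 18.98 to 26.0 and 13.6 to 16.5, and fibroblast markers (3 of 4) to 433 to 515 and 339 to 387. The only marker at 0 reads in a library was Pecam1, in untreated culture 1. Of the 7 astrocyte markers, 3 fell and 0 rose in RNAseq, 4 rose in RF, and 2 rose in TE (Aqp4 and Slc1a3). Of all measured genes, 15.5% fell and 17.3% rose in RNAseq, 20.8% rose in RF and 1.56% rose in TE. In such mixed cultures, fewer cells of a type and less RNA per cell cannot be told apart, and the part of cell mixture in the changes given here was not tested.

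After KCl, 9 of the 18 measured members rose in RNAseq (edgeR quasi-likelihood test, adjusted p under 0.05) and 0 fell, where 17.3% of all measured genes rose and 15.5% fell. In RF 12 rose and 0 fell, against 20.8% and 19.4% of all measured genes. In TE 1 rose and 0 fell, against 1.56% and 4.28%. At an unadjusted p under 0.05, 0 members fell in RNAseq or RF by edgeR or DESeq2, and in TE 2 rose and 2 fell by edgeR and 2 rose and 1 fell by DESeq2. The median log2 fold change of the members was 0.33 in RNAseq, 0.49 in RF and 0.15 in TE, and that of all measured genes was -0.011, -0.007 and 0.019. Both KCl cultures lay above all 3 untreated cultures for 11 members in RNAseq and for 14 in RF, where 27.2% and 30.4% of all measured genes did. Both lay below for 0 members in RNAseq and 1 in RF (Srpk1), against 28% and 30.2% of all measured genes.

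**Figure D1:**
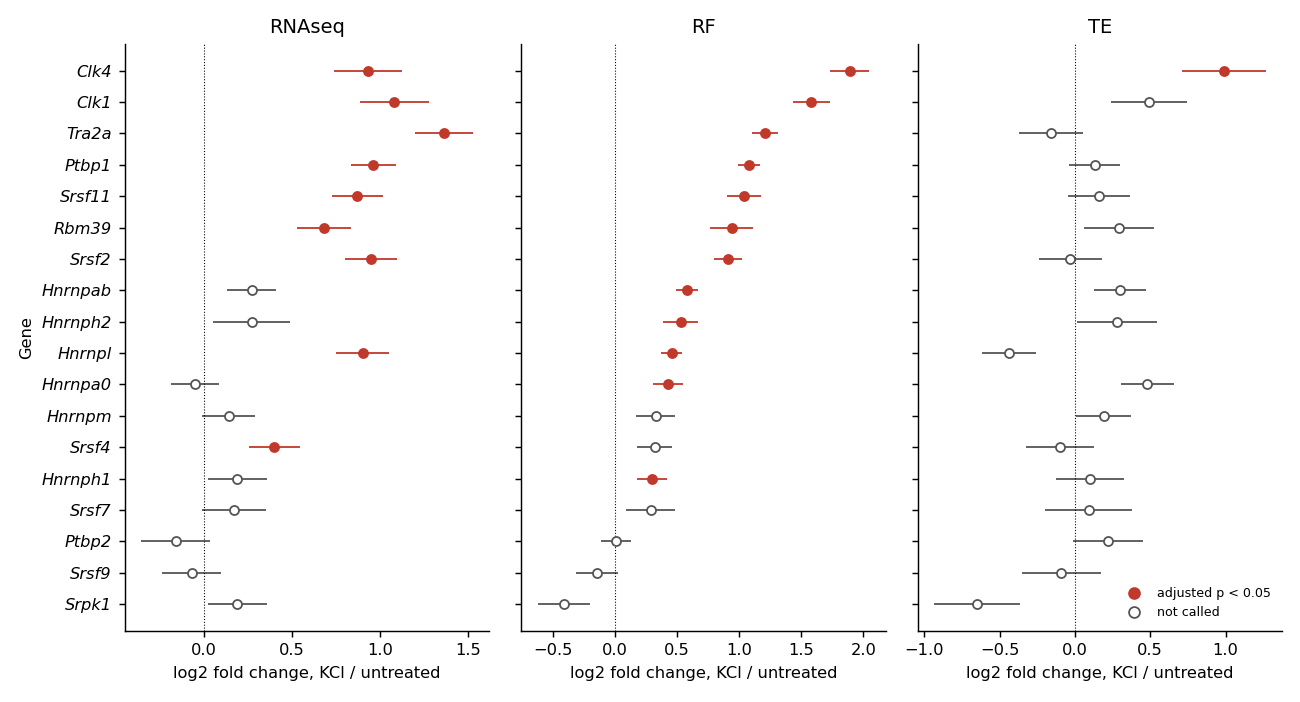
Log2 fold change of each measured gene after KCl (x axis) in RNAseq, RF and TE, with its standard error as a horizontal bar, ordered by the RF value on the y axis; filled red points have an adjusted p under 0.05. The 12 RF rises run from 0.30 for Hnrnph1 to 1.89 for Clk4, and Clk4 is the sole filled point for TE.

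Among the SR proteins and their relatives, 4 of 6 measured genes rose in RNAseq and 3 in RF, against 17.3% and 20.8% of all measured genes, and 0 changed in TE. Tra2a, Srsf2 and Srsf11 rose in both assays, Srsf4 rose in RNAseq, and Srsf7 and Srsf9 passed no test. Tra2a, which encodes a splicing activator that binds GA-rich exonic enhancers, rose most of this group. It was measured by ENSMUST00000031841 on the minus strand of chromosome 6 of GRCm38, from 49243928 to 49264030. Normalized RNAseq CPM (counts per 1000000 reads after scaling by TMM, the trimmed mean of M values) of Tra2a were 59.9, 52.3 and 69.5 in untreated cultures 1, 2 and 3 and 175 and 136 in KCl cultures 4 and 5. Its RF values were 121, 133 and 131 without KCl and 283 and 308 with it. The KCl cultures lay above every untreated culture in both assays, with a log2 fold change of 1.36 in RNAseq (± 0.16 standard error, edgeR adjusted p = 1.3e-08) and of 1.21 in RF (± 0.10 standard error, edgeR adjusted p = 2.3e-10).

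Srsf2 (SC35) is an SR protein of nuclear speckles. Its transcript ENSMUST00000092404 lies on chromosome 11 from 116849901 to 116853094, on the minus strand. RNAseq gave 105.5, 87.4 and 92.45 CPM in untreated and 193 and 176 in KCl cultures, and RF gave 109, 117 and 108 and then 206 and 214. Groups did not overlap in either assay. The log2 fold change was 0.95 in RNAseq (± 0.15 standard error, edgeR adjusted p = 2.2e-06) and 0.91 in RF (± 0.11 standard error, edgeR adjusted p = 1.3e-07).

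Srsf11, an SR-related protein, is encoded on chromosome 3 from 158010473 to 158036639 (ENSMUST00000121326, minus strand). RNAseq gave 121, 96.4 and 108 CPM without KCl and 205 and 189.9 with it. In RF untreated culture 1 was lowest at 87.6, cultures 2 and 3 had 122 and 134, and the KCl cultures had 224 and 231.5. Both KCl values again exceeded all untreated ones. Log2 fold changes were 0.87 in RNAseq (± 0.15 standard error, edgeR adjusted p = 9.4e-06) and 1.04 in RF (± 0.14 standard error, edgeR adjusted p = 3.5e-06). Srsf4 rose by a smaller log2 fold change of 0.40 in RNAseq (adjusted p = 0.0261, edgeR), and its RF value of 0.32 had an adjusted p of 0.0693 (edgeR), called without untreated culture 2 (0.34) and under looser filters (0.39 each). The Srsf4 call was lost with library totals in place of TMM (log2 fold change 0.31), with CDS reads alone (0.10), without KCl culture 4 (0.36) and without KCl culture 5 (0.43). Srsf7 had log2 fold changes of 0.17 and 0.29 and Srsf9 of -0.07 and -0.14 in RNAseq and RF.

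**Figure D2:**
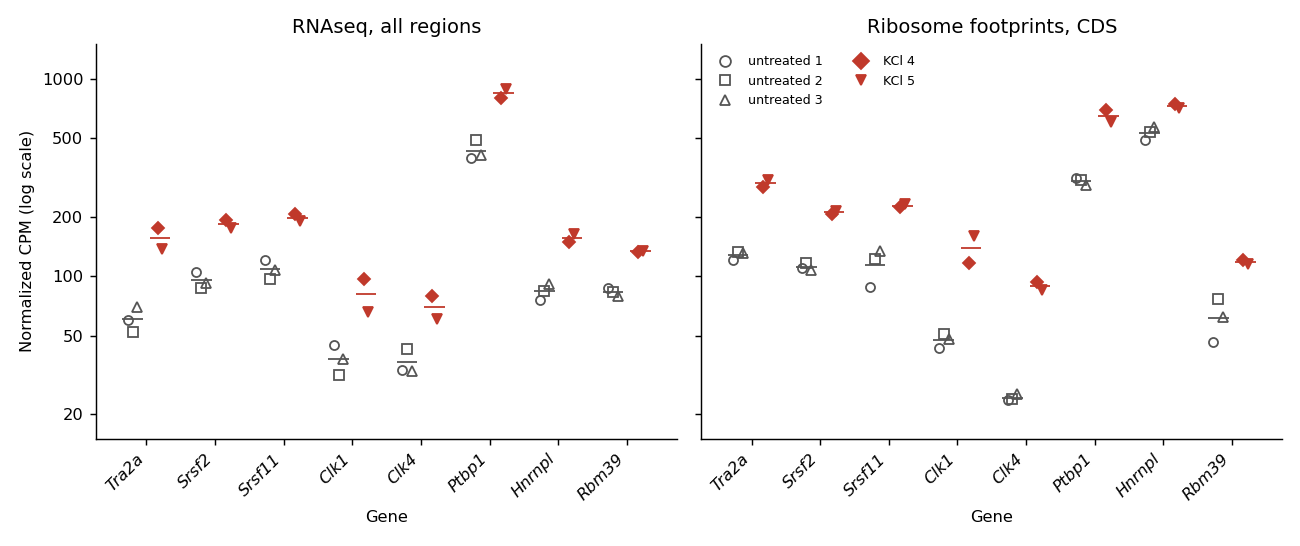
Normalized CPM (y axis, log scale) of 8 genes (x axis) in each culture, RNAseq on the left and CDS footprints on the right; open gray symbols are untreated cultures 1 to 3, filled red symbols KCl cultures 4 and 5, and horizontal lines the group means. The 8 genes were picked because they were called up in both assays. For all 8 genes both red symbols lie above the gray ones in both panels. Of all measured genes, 27.2% in RNAseq and 30.4% in RF separated upward in this way.

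The CLK kinases moved in different directions. Clk1 and Clk4 rose in RNAseq and RF, Clk4 also rose in TE, Clk3 passed no test, and Clk2 fell in both assays. Clk4 lies on chromosome 11 from 51263114 to 51281764 on the plus strand (ENSMUST00000093132). Its RNAseq values were 33.5, 42.9 and 33.1 CPM in untreated and 78.9 and 60.5 in KCl cultures. Its RF values were close to one another in the untreated cultures at 23.55, 23.8 and 25.3 CPM and reached 93.4 and 84.9 with KCl. The CDS footprints behind them numbered 136, 117 and 27 without KCl and 105 and 183 with it. The log2 fold change was 0.93 in RNAseq (± 0.19 standard error, edgeR adjusted p = 0.00021) and 1.89 in RF (± 0.16 standard error, edgeR adjusted p = 1.4e-10).

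Clk4 was the single measured member called in TE. As a ratio of RPKM its TE was 0.90, 0.71 and 0.94 in untreated cultures 1, 2 and 3 and 1.48 and 1.74 in KCl cultures 4 and 5, so that the groups did not overlap. The log2 fold change was 0.99 (standard error 0.28, edgeR adjusted p = 0.0123 with culture as a block). All 3 measured Clk4 transcripts, which share most reads, were called, with log2 fold changes from 0.99 to 1.14, where 1.53% of all measured transcripts rose in TE. The size held at 0.84 to 1.11 with each culture left out, but the adjusted p (edgeR) was 0.0644 without untreated culture 2, 0.0919 without KCl culture 4 and 0.403 without KCl culture 5. It was 0.0977 with DESeq2 and 0.0702 with CDS reads alone as the RNAseq measure (edgeR), and over all alternatives it ranged from 0.00308 to 0.403.

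Clk1, on the minus strand of chromosome 1 from 58412000 to 58424066 (ENSMUST00000034868), had RNAseq values of 44.8, 31.6 and 38.0 CPM without KCl and 96.2 and 65.6 with it. RF values were 43.3, 51.0 and 47.75 and then 116.5 and 160.1. Both KCl cultures lay above all untreated cultures in each assay, although the KCl cultures differed in order, culture 4 being higher in RNAseq and culture 5 in RF. Log2 fold changes were 1.08 in RNAseq (± 0.20 standard error, edgeR adjusted p = 3e-05) and 1.58 in RF (± 0.15 standard error, edgeR adjusted p = 1.3e-09). In TE the value was 0.49 (± 0.25 standard error, edgeR adjusted p = 0.30), and without KCl culture 5 it was -0.04. TE of the KCl cultures was 1.39 and 2.77, and that of the untreated cultures 1.14, 1.89 and 1.42.

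Clk2 was below the measured level and was tested in the fit without that filter, where 8.62% of all transcripts fell in RNAseq and 12.6% in RF. RNAseq reads on its transcript (chromosome 3, from 89164840 to 89176921) numbered 67, 87 and 61 in untreated and 34 and 29 in KCl cultures, and CDS footprints 113, 99 and 14 and then 9 and 14. The normalized values of both KCl cultures lay below all untreated ones, with 14.0 and 10.6 CPM against 26.1, 34.0 and 24.95 in RNAseq and 8.00 and 6.50 against 19.6, 20.1 and 13.1 in RF. The log2 fold change was -1.15 in RNAseq (± 0.29 standard error, edgeR adjusted p = 0.00095) and -1.34 in RF (± 0.33 standard error, edgeR adjusted p = 0.00051). Clk3 had log2 fold changes of 0.30 and 0.16 in the same fit. Srpk1, the cytoplasmic SR protein kinase, gave 0.19 in RNAseq, -0.41 in RF and -0.65 in TE, none called. Its TE was 1.06, 1.37 and 1.20 without and 0.75 and 0.76 with KCl (adjusted p = 0.192, edgeR). Its RF value was called with library totals in place of TMM (-0.54) and without untreated culture 1 (-0.60).

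The promoters of Tra2a and Clk4 each hold the palindromic cyclic AMP response element (CRE), the site bound by CREB and its relatives, through which calcium entry is known to drive transcription in depolarized neurons. RefSeq promoter windows of GRCm38.p6, from 250 bases before to 50 after each annotated start, were present for 34 of the 36 members. Those of Clk1 and Rbm3 were not found. Below are 30-base stretches, 5′ to 3′ on the gene's strand, with the CRE in capitals. They are shown because Tra2a and Clk4 were the only 2 of the 34 members with the full element.
Tra2a, minus strand, chr6:49264061-49264090: ggtccgcccctTGACGTCAggcgccgggga
Clk4, plus strand, chr11:51263038-51263067: cccgccgtcccTGACGTCAcagacccctcg
The first base of the CRE lies 27 bases before the RefSeq start of Tra2a and 65 bases before that of Clk4. The letters TGACGTCA read the same on both strands. They were found in 2 of 34 members (5.88%), against 2.03% of all genes with a window and 1.79% of all 32851 windows. Among measured genes with a window they were found in 2 of 17 members, against 3.37% of all. The shorter form TGACG was searched on both strands and is contained in the full element. It was found in 24 of the 34 members (70.6%), against 23% of all genes with a window. Among measured genes with a window it was found in 10 of 17 members, against 37.9% of all. These 10 included members that rose in RNAseq, for example Srsf2, Srsf11 and Ptbp1, and members that did not, for example Hnrnpa0 and Hnrnpm. These are matches of letters, binding was not measured, and a part of CREB in the rises was not tested.

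In the hnRNP family, 1 of 6 measured genes rose in RNAseq, a share near the 17.3% of all measured genes that did, and 5 rose in RF, against 20.8%, with 0 falls in either. The median log2 fold change was 0.23 in RNAseq and 0.44 in RF. Hnrnpl, which encodes a regulator that binds CA repeats, rose in both assays. It lies on chromosome 7 from 28808541 to 28822266 on the plus strand (ENSMUST00000174548). Its RNAseq values were 75.9, 83.9 and 91.2 CPM in untreated and 148 and 163 in KCl cultures, and its RF values 491, 539.8 and 568 and then 749 and 713.5. The groups did not overlap. The log2 fold change was larger in RNAseq (0.90 ± 0.15, edgeR adjusted p = 1e-05) than in RF (0.46 ± 0.08, edgeR adjusted p = 6.7e-05). With CDS reads alone the RNAseq value was 0.57, nearer that of RF. Mean RPM with KCl over untreated was 2.80 on the 3′UTR and 1.36 on the CDS in RNAseq, and 1.28 for CDS footprints. TE of Hnrnpl, which rests on RNAseq of all regions, was 9.35, 9.26 and 8.65 without KCl. It was lower in both KCl cultures, at 7.14 and 6.12. The TE log2 fold change of -0.44 (standard error 0.18) had an adjusted p of 0.129 (edgeR).

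The other hnRNPs called in RF were called there alone. Hnrnpab had 365, 333 and 394 CPM in RF without KCl and 529 and 552 with it, a log2 fold change of 0.58 (± 0.09 standard error, edgeR adjusted p = 5.3e-06), and its RNAseq value was 0.27 (adjusted p = 0.147, edgeR). Hnrnph2 rose in RF by 0.53 and Hnrnpa0 by 0.43 on the log2 scale, and their RNAseq values were 0.27 and -0.05. That a gene passed in RF and not in RNAseq does not show that the assays differ, and the TE test of this difference gave adjusted p-values (edgeR) of 0.376 for Hnrnpab, 0.652 for Hnrnph2 and 0.0838 for Hnrnpa0. TE of Hnrnpa0, an hnRNP with an intronless gene, was called without untreated culture 1 (0.65) and with all RF regions (0.54). The RF rise of Hnrnph1 (0.30, adjusted p = 0.0484, edgeR) lay at the threshold and was lost with DESeq2 (0.30), with library totals (0.16), with reads summed per gene (0.29), with at least 100 reads in every library (0.18) and with any of cultures 1, 2, 4 and 5 left out (0.24 to 0.34). The RF call of Hnrnph2 was lost without KCl culture 4 (0.35). That of Hnrnpa0 was lost without KCl culture 5 (0.42), with library totals (0.29) and with at least 100 reads in every library (0.31). Hnrnpm had 0.33 in RF, not called, with 1 of its 4 measured transcripts passing (0.39, edgeR adjusted p = 0.0412), where 20.9% of all measured transcripts rose. Hnrnpm was called without untreated culture 3 (0.45) and under looser filters (0.40 and 0.41). Of Hnrnpr, 3 transcripts with a shorter annotated 3′UTR than the one named were measured, and their values were 0.15 to 0.17 in RNAseq and -0.22 to -0.21 in RF, none called. With at least 100 reads in every library the named transcript entered the fit and fell in RF (-0.33, edgeR adjusted p = 0.0114).

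Ptbp1 rose and its paralog Ptbp2 did not pass the test. Ptbp1, on chromosome 10 from 79854427 to 79864432 (plus strand, ENSMUST00000172282), had 396, 490.5 and 411 CPM in RNAseq without KCl and 794 and 891 with it. In RF it had 316, 305 and 288 and then 696 and 602. Every KCl value was well above every untreated one, with log2 fold changes of 0.96 in RNAseq (± 0.13 standard error, edgeR adjusted p = 9e-08) and 1.08 in RF (± 0.09 standard error, edgeR adjusted p = 6.5e-11). For Ptbp2 the log2 fold change was -0.16 in RNAseq (standard error 0.20) and 0.01 in RF (standard error 0.12), and the groups overlapped in both. Per length, Ptbp1 was the more abundant transcript in untreated cultures, with 110.5 RPKM in RNAseq against 14.7 for Ptbp2, and with 135 against 69.2 RPKM in RF. Rbm39, a U2AF-related splicing coactivator, rose by 0.68 in RNAseq (± 0.15 standard error, edgeR adjusted p = 0.00054) and 0.94 in RF (± 0.17 standard error, edgeR adjusted p = 0.00018). Its values were 87.2, 83.1 and 79.4 CPM against 132 and 135 in RNAseq, and 46.4, 76.4 and 61.8 CPM against 121 and 115 in RF. Rbm3, a cold-inducible protein, had 12, 12 and 7 RNAseq reads in untreated and 28 and 10 in KCl cultures, which is too few to order the groups.

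RNAseq reads on the 3′UTR and the CDS were compared as their ratio, with no test. Clk1 had ratios of 3′UTR to CDS reads of 0.037, 0.085 and 0.057 in untreated and 0.16 and 0.13 in KCl cultures. Its 3′UTR reads numbered only 4, 6 and 5 without and 32 and 20 with KCl, and its CDS reads 108, 71 and 87 and then 201 and 152. Hnrnpl had ratios of 0.35, 0.26 and 0.23 and then 0.45 and 0.69, Tra2a 2.45, 2.15 and 2.87 and then 5.62 and 4.23, and Srsf2 6.13, 5.20 and 8.68 and then 11.8 and 13.3. The ratio was higher in both KCl cultures than in all untreated cultures for these 4 genes and for Ptbp2 and Srsf4, which is 6 of 18 members. The background was 3964 genes with reads on both regions in every RNAseq library and at least 20 per region summed over these libraries. Of these genes, 19.5% were higher in this way and 9.23% lower. Hnrnpab and Srsf7 were the members that were lower. The log2 differences of Clk1 (1.36), Hnrnpl (1.01), Tra2a (0.98) and Srsf2 (0.94) compare with a median of 0.097 over those genes, and they were not tested.

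For Srsf2, Srsf4, Tra2a and Rbm39 the RNAseq call was lost with CDS reads alone. Srsf2 then gave a log2 fold change of 0.26, Srsf4 of 0.10, Tra2a of 0.66 and Rbm39 of 0.74. None had an adjusted p under 0.05 (edgeR). The Rbm39 value was not smaller than with all regions (0.68), and its CDS held 15 to 55 reads per library. In that fit 5 of 18 members were called, all up, where 885 of all 7258 measured transcripts rose and 643 fell. CDS reads of Srsf2 were few, at 30, 30 and 19 in untreated and 33 and 29 in KCl cultures, against 184, 156 and 165 and then 388 and 385 on its 3′UTR. Clk1, Clk4, Ptbp1, Hnrnpl and Srsf11 were called with either measure.

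**Figure D3:**
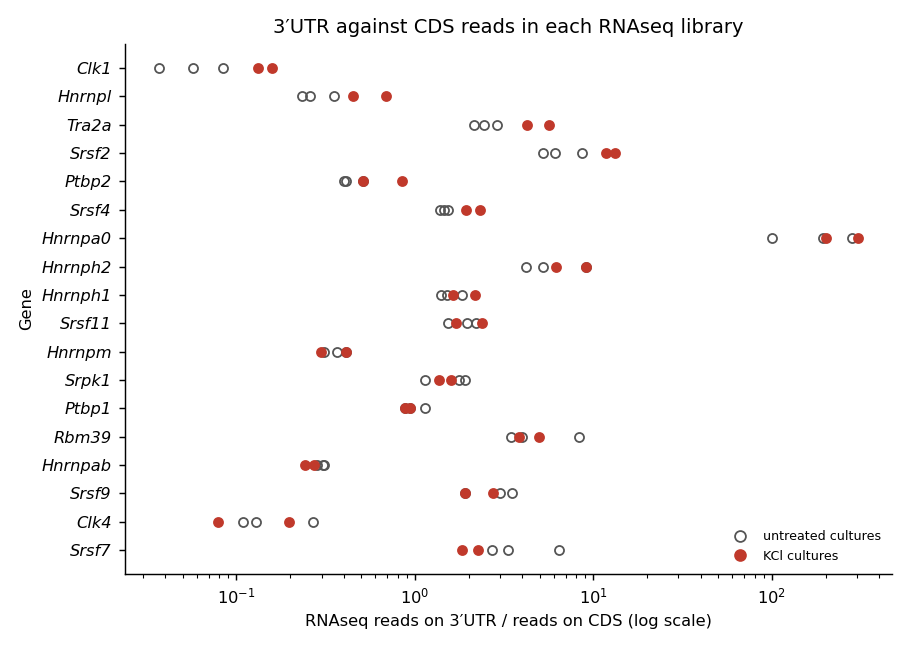
Ratio of RNAseq reads on the 3′UTR to reads on the CDS (x axis, log scale) for each measured gene (y axis), 1 point per culture, open for untreated and filled for KCl. For Clk1, Hnrnpl, Tra2a and Srsf2, at the top, the filled points lie to the right of all open ones, and for Srsf7, at the bottom, to the left.

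Members without CDS reads, and Hnrnpk and Srsf10 with few, were followed in RNAseq mainly by their UTRs. The fit was the one without the measured filter, where 10.4% of all transcripts rose and 8.62% fell. Srsf5, an SR protein, rose from 135, 112 and 139 CPM to 199.8 and 199 (log2 fold change 0.69, standard error 0.15, adjusted p = 5.6e-05, edgeR). Its gain lay on the 3′UTR, with 263, 190 and 206 reads and then 375 and 437, while 5′UTR reads numbered 79, 89 and 119 and then 93 and 87. Tra2b, the paralog of Tra2a, rose by 0.63 (± 0.17 standard error, edgeR adjusted p = 0.0017) and Hnrnpk by 0.61 (± 0.14 standard error, edgeR adjusted p = 0.00029). Srsf3, the smallest SR protein, went the other way, with 67.7, 42.9 and 55.2 CPM in untreated and 39.5 and 28.6 in KCl cultures, all from its 3′UTR (log2 fold change -0.65, standard error 0.21, adjusted p = 0.0153, edgeR). Hnrnpa1 had -0.34 (adjusted p = 0.0694, edgeR) with both KCl cultures below the untreated ones, Hnrnpa3 -0.27 and Srsf10 -0.0016, none called. Srsf1 had no RNAseq read in any library.

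Tra2b has a pair of listed transcripts that end in the same last exon on chromosome 16. The longer (ENSMUST00000161286) runs to 22244549 and the shorter (ENSMUST00000023564) stops at 22246448 on the minus strand, so the 3′UTR of the shorter is nested in that of the longer. The shorter transcript gained more, with 78, 69 and 67 reads in untreated and 174 and 128 in KCl cultures (log2 fold change 1.12, standard error 0.21, adjusted p = 3.4e-06, edgeR). Reads on the nested part were 23.9, 21.4 and 21.9 RPM without KCl and 53.8 and 35.3 with it. Reads on the 3′UTR beyond it were 41.7, 28.8 and 36.7 RPM and then 42.3 and 34.7, and there the groups overlapped. The nested part thus held 36.5%, 42.6% and 37.4% of the 3′UTR reads in untreated and 55.95% and 50.4% in KCl cultures. This difference was not tested.

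Hnrnpa2b1 has 3 listed transcripts that share the exon with the stop codon (chromosome 6, from 51463411 to 51463493) and differ in what follows. The most abundant (ENSMUST00000114459) ends in an exon from 51462760 to 51463254. ENSMUST00000090002 instead joins an exon from 51461920 to 51462055 and then one from 51461124 to 51461433, and ENSMUST00000069949 joins a single exon from 51460932 to 51461433. On the nearest last exon the 3′UTR reads were 252, 208 and 243 RPM in untreated and 294 and 231 in KCl cultures, overlapping between groups, and the transcript had a log2 fold change of 0.28 (adjusted p = 0.146, edgeR). With the pair of distal exons they were 28.5, 14.3 and 23.9 RPM and then 68.0 and 52.9, and with the single distal exon 18.1, 9.91 and 17.3 and then 51.3 and 33.1. Both distal forms rose, by log2 fold changes of 1.38 (± 0.19 standard error, edgeR adjusted p = 2.07e-11) and 1.21 (± 0.20 standard error, edgeR adjusted p = 3.44e-08), on reads that they share with each other.

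**Figure D4:**
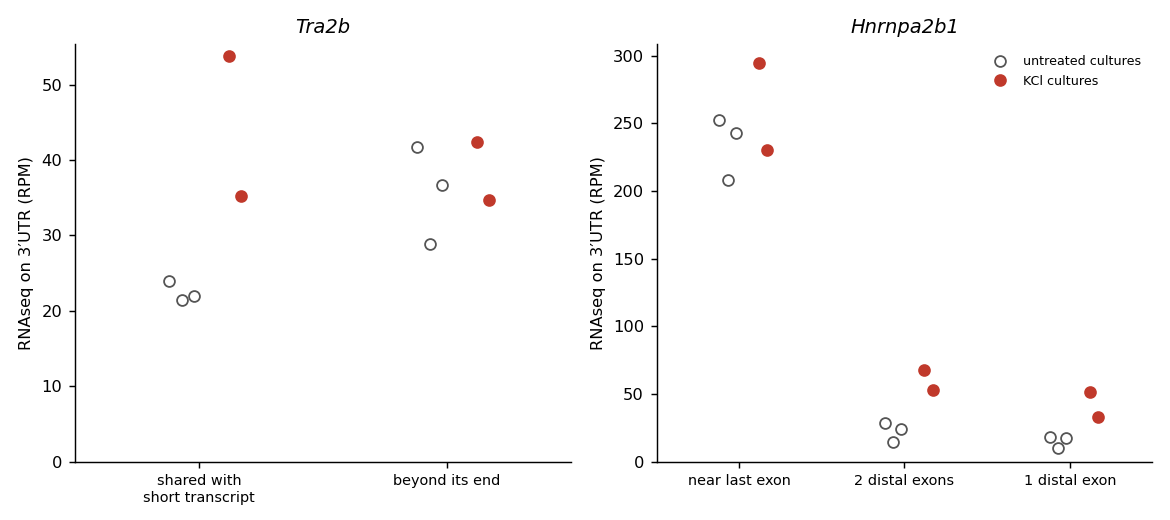
RNAseq RPM, reads per 1000000 library reads (y axis) on alternative 3′UTR parts of Tra2b (left) and Hnrnpa2b1 (right), 1 point per culture, open for untreated and filled for KCl; the x axis names the part. KCl points lie above the untreated ones for the nested part of Tra2b and for both distal forms of Hnrnpa2b1, and overlap with them for the part of Tra2b beyond the nested one and for the near last exon of Hnrnpa2b1.

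Footprints on the 5′UTR were counted also for members without usable CDS. Those on Hnrnpa2b1 numbered 388, 242 and 79 in untreated and 123 and 327 in KCl cultures, which is a mean of 47.1 RPM without and 90.6 with KCl, with both KCl cultures above the untreated ones. Hnrnpk also lay higher in both KCl cultures, with means of 21.1 and 24.6 RPM. Srsf10 lay lower in both, with means of 2.70 and 1.26 RPM on few reads. The share of all genes that separated in this way was not counted. Means were 24.7 and 29.5 RPM for Tra2b, 18.7 and 26.0 for Srsf5 and 21.8 and 17.9 for Hnrnpa1, and the groups of these 3 overlapped. On the 3′UTR, footprints of the measured members numbered at most 7 in a library.

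Baseline TE, the mean of the 3 untreated cultures as a ratio of RPKM, spanned from 0.753 ± 0.046 (SD, n = 3) for Srsf4 to 9.09 ± 0.38 for Hnrnpl, which lay at the 99.2nd percentile of all 7258 measured transcripts. The median was 1.85 over the 18 members and 1.69 over all measured transcripts. Below Hnrnpl came Ptbp2 (4.74 ± 0.56), Hnrnpab (4.66 ± 0.45), Hnrnpm (4.30 ± 0.67) and Tra2a (4.27 ± 0.74), whose order is within their spread, then Hnrnph2 (3.67 ± 0.39), Srsf2 (3.15 ± 0.41), Hnrnph1 (2.35 ± 0.27) and Srsf11 (2.04 ± 0.56). Hnrnpa0 (1.66 ± 0.33), Srsf7 (1.55 ± 0.087) and Clk1 (1.48 ± 0.38) could not be ordered, nor could Ptbp1 (1.23 ± 0.16), Rbm39 (1.23 ± 0.32), Srpk1 (1.21 ± 0.16) and Srsf9 (1.06 ± 0.18). Clk4 (0.848 ± 0.124) and Srsf4 were lowest by this measure. With CDS reads alone as the RNAseq measure Srsf4 became 1.24 and Clk4 0.886, so Srsf4 was then no longer below Clk4. The paralogs Ptbp1 and Ptbp2 thus differed more in RNAseq than in RF, and the TE of Ptbp1 was below that of Ptbp2 in each untreated culture. With KCl, the TE of Clk4 had a mean of 1.61 ± 0.18 (SD, n = 2).

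Ratios for several members rest on uneven RNAseq coverage. With CDS reads alone as the RNAseq measure, baseline TE became 103.9 for Hnrnpa0, whose CDS held 8, 3 and 5 RNAseq reads in the untreated cultures against 804 to 967 on the 3′UTR. It became 15.6 for Hnrnph2, 10.3 for Srsf2, 7.71 for Tra2a, 5.86 for Rbm39, 4.89 for Hnrnph1, 2.89 for Srsf7 and 2.33 for Srsf9. It was lower for Hnrnpab, at 2.19, which then no longer lay near the top. It was 8.07 for Hnrnpl, 1.35 for Ptbp1, 1.31 for Clk1 and 0.886 for Clk4.

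**Figure D5:**
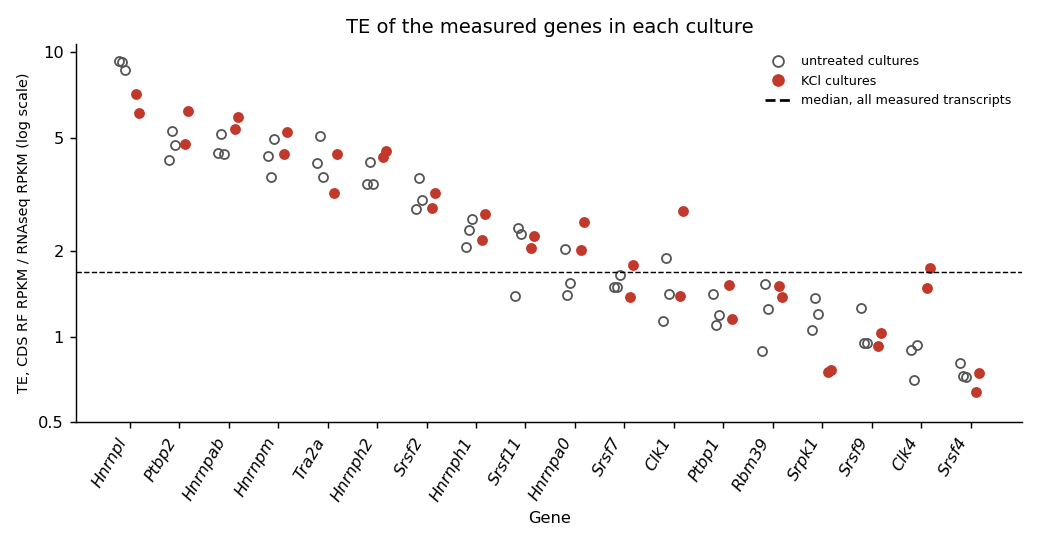
TE (CDS RF RPKM over RNAseq RPKM, y axis, log scale) of the measured genes (x axis, ordered by their untreated mean), 1 point per culture, open for untreated and filled for KCl; the dashed line is the median of all measured transcripts. Both KCl points of Clk4, Hnrnpab and Hnrnph2 lie above their untreated ones, and those of Hnrnpl and Srpk1 lie below theirs. Of these genes only Clk4 was called in TE. The share of all measured genes that separated in this way was not counted.

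Other genes of the splicing pathway were taken from lists chosen by function, also with earlier results of these data known. Their counts are to be read against the shares of all measured genes. These were 17.3% up and 15.5% down in RNAseq, 20.8% and 19.4% in RF, and 1.56% and 4.28% in TE. Of 12 measured SR-related and exon junction genes, 6 rose and 0 fell in RNAseq and 7 rose and 1 fell in RF. Sfswap, a regulator with an arginine-serine domain, rose by 1.02 in RNAseq and 1.42 in RF on the log2 scale, the speckle protein gene Son by 0.76 and 1.04, and Magoh, a core exon junction protein, by 1.05 and 0.81. Of 14 core spliceosome genes, 4 rose and 2 fell in RNAseq, near those shares, and 7 rose and 1 fell in RF. Snrpb, which encodes the Sm proteins B and B′, rose by 0.60 and 1.5, the branch point binding protein Sf1 by 1.08 and 0.95, and Prpf31, a protein of the U4/U6 particle, changed by -0.79 and -1.04. Of 40 other splicing regulators, 13 rose and 2 fell in RNAseq, 17 rose and 6 fell in RF, and 2 rose in TE. Srrm4, the activator of neuronal microexons, rose by 1.34 and 1.52 and Fubp1 by 1.06 and 1.38. The pair called in TE consisted of Cirbp, a cold-inducible protein, whose RNAseq changed by -1.61 and RF by -0.63 with a TE change of 0.98 (adjusted p = 0.00738, edgeR), and Tial1, whose TE rose by 0.76 (adjusted p = 0.0421, edgeR).

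Of 7 measured NMD factors, 3 rose and 0 fell in RNAseq and 5 rose and 0 fell in RF, where 17.3% and 20.8% of all measured genes rose. Etf1, the release factor, rose by 1.23 and 1.26 and Casc3 by 0.85 and 0.47. The median log2 fold changes in RNAseq were 0.37 for the SR-related, 0.23 for the core spliceosome, 0.17 for the other regulators and 0.23 for the NMD genes, against 0.33 for the members. In RF they were 0.75, 0.38, 0.30 and 0.44 against 0.49. Stress genes moved in the same libraries. Of 6 measured, 3 rose in RNAseq and 5 in RF, against the same shares, with Atf4 at 2.21 and 2.44, Atf3 at 1.79 and 1.95, and Ddit3 at -0.12 and 2.56 with a TE change of 2.70 (adjusted p = 1.44e-05, edgeR). The part of a stress response in the changes of the splicing genes was not tested.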

How the data were processed

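RNAseq and RF libraries of 5 cultures were used, and library labels gave treatment and culture number. Per the labels and methods, the authors trimmed reads with Trimmomatic 0.32, removed rRNA with STAR 2.3.1z8, aligned with Bowtie2 2.2.2 to mm10 transcripts freed of degenerate sequences, keeping reads with several matches, and deposited raw read counts per transcript region made with bedtools 2.20.1. The RNAseq kit does not mark strand. The files mark regions by letters without a key. They were taken in order as 5′UTR, CDS, a region left unnamed and 3′UTR. GENCODE annotation (GRCm38) matched 22177 of 22534 transcripts (98.4%), and 7258 were measured. edgeR 4.0.16 in R 4.3.3 fitted RNAseq and RF separately after TMM within each assay, and TE as the assay by treatment interaction with culture as block, because both libraries of a number come from 1 culture. Deviations of same-numbered libraries correlated at -0.0722 to 0.0639, which does not settle the pairing. P-values were adjusted (Benjamini-Hochberg) over all measured transcripts, and they measure only the spread between these cultures. Standard errors are the log2 fold change over the square root of F. DESeq2 1.42.0 and the other alternatives are given below. The fits were tested on simulated data.

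Members and gene lists were chosen with earlier results of these data known. By rule, values in every library were given for members called in TE and for the 6 with the largest changes, and list genes were named when called in TE or among the 3 largest changes. Per-library values of Clk2, Srpk1, Hnrnpl, Hnrnpab, Rbm3, Rbm39, Srsf3, Srsf5, Hnrnpa1, Hnrnpa2b1 and Tra2b, the 3′UTR to CDS ratios and the CRE were chosen after values were seen. A list gene that this rule names is not reported here.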

Additional observations from a re-analysis of the deposited data

How the results depend on the processing

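Of the 18 measured members, 9 were called in RNAseq, 12 in RF and 1 in TE. With at least 100 reads in every library 11 members entered. Of these, 5 were called in RNAseq (all up), 7 in RF (6 up and 1 down, Hnrnpr) and 0 in TE. Of all 2469 transcripts in that fit, 380 rose and 354 fell in RNAseq, and 540 rose and 545 fell in RF. With CDS reads as the RNAseq measure 5 were called in RNAseq and 0 in TE. In RNAseq 885 of all 7258 measured transcripts then rose and 643 fell. With edgeR's filterByExpr and with no filter beyond 1 read, 30 members entered RNAseq and 14 were called, 12 up and 2 down. Among all transcripts, 2300 of 17206 rose and 1932 fell with filterByExpr, and 2275 of 21950 rose and 1891 fell with no filter. DESeq2 gave 0 TE calls and all RF regions gave 2. Leaving out each culture in turn gave 8 to 9 calls in RNAseq, 10 to 13 in RF and 0 to 2 in TE. Without the replicate block the TE count was 1, with Clk4 at 0.96 (adjusted p = 0.0153, edgeR), and the block changed no call of a member. Other directions turned only for log2 fold changes that were not called. CDS reads turned Srsf9 in RNAseq (0.10) and Srsf2 (0.67), Srsf4 (0.18), Srsf7 (-0.33) and Tra2a (0.55) in TE, all RF regions turned Srsf7 in TE (-0.06), filterByExpr and no filter turned Hnrnpa0 in RNAseq (0.00 each), and Ptbp2 turned in RF with at least 100 reads (-0.11) and with library totals (-0.12). With each culture left out in turn, RNAseq values ranged from -0.13 to 0.00 for Srsf9, -0.24 to 0.10 for Hnrnpa0 and -0.49 to 0.11 for Ptbp2, and the RF value of Ptbp2 from -0.07 to 0.11. TE values then ranged from -0.13 to 0.07 for Srsf2, -0.23 to 0.02 for Srsf4, -0.14 to 0.26 for Srsf7, -0.19 to 0.07 for Srsf9, -0.11 to 0.33 for Srsf11, -0.40 to 0.08 for Tra2a, -0.04 to 0.98 for Clk1, -0.07 to 0.26 for Hnrnph1 and -0.05 to 0.32 for Ptbp1. The causes were not tested. Few reads on the CDS of SR genes and 2 KCl cultures limit these values.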
